A study of Mus musculus with 4 samples.

Results

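Immediate-early and stress response regulators were examined in inflamed colon of mice with and without the Ets transcription factor Elf4. The members were all genes of the deposited table whose symbol begins with the name of a family of such regulators, among them Fos, Jun, Egr, Nr4a, Ier, Dusp, Socs, Zfp36, Klf, Nfkb, Cebp, Ddit, Gadd45, Btg, Trib and Sphk. They numbered 38 of the 4121 genes listed. RNA was sequenced from 2 WT and 2 Elf4-KO samples of C57BL/6 mice aged 8 weeks. Both genotypes had been given 3% dextran sulfate sodium (DSS), which damages the colonic epithelium and brings on colitis, and inflamed distal colon was collected on day 6. No untreated group was compared here, so every difference is between genotypes within colitis. The sources used here do not say which part of Elf4 was targeted or whether a sample came from 1 mouse or several.

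The authors' deposited table holds 1 FPKM value per gene and genotype (fragments scaled to transcript length and to library size). WT and KO below stand for the wild-type and knockout values. With 1 value per genotype, no SD, n or test against the spread of samples is possible here, and the depth of each library is unknown. The table lists only genes past the authors' call, with a 2-fold or larger difference and q up to 0.05. All 38 members had thus already been called, and rose and fell refer to that call. The q was 0.000372 in the authors' deposited table, its smallest, for 28 of the 38 members (73.7%), beside 54.2% of all listed genes. Another q is given where it applies. Elf4 itself fell from 16.4 FPKM (WT) to 3.51 FPKM (KO). Since the tissue is a mixture, fewer cells of a type and less RNA per cell cannot be told apart. Of 17 epithelial marker genes, 17 were listed and 17 fell, from 10559 to 1006 FPKM when summed, so the colon epithelium was detected in both genotypes at different levels.

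Immediate-early genes are transcribed within minutes of a growth factor, cytokine or injury signal, because the factors that bind their promoters are already present in the cell. Many encode transcription factors such as Fos, Egr1 and Nr4a1, which carry the signal to later genes. Others encode brakes that end the response, including phosphatases of MAP kinases (Dusp1), inhibitors of NF-kB (Nfkbia) and of cytokine receptors (the Socs genes), and Zfp36, a protein that binds AU-rich stretches of mRNAs and speeds their decay. In the colon, members of the Klf family also set epithelial growth and differentiation.

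Short stretches before the start sites of 7 members that rose and 1 that fell are printed first, since such signals are read there. The 8 were chosen for the motif matches they hold. Each is the 250 bases before the start site in RefSeq on GRCm38.p6, read 5′ to 3′ on the gene's strand. Capitals mark matches, on either strand, to the cyclic AMP response element (CRE, TGACGTCA), the EGR motif (GCGNGGGCG), the CArG box of serum response factor or the NF-kB motif.
Dusp1, chr17:26508473-26508722, minus strand: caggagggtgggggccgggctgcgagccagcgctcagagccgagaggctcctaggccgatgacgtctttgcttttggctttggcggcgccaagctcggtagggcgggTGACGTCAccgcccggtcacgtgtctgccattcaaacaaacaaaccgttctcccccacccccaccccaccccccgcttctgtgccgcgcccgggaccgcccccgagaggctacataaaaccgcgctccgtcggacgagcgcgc
Nfkbia, chr12:55492648-55492897, minus strand: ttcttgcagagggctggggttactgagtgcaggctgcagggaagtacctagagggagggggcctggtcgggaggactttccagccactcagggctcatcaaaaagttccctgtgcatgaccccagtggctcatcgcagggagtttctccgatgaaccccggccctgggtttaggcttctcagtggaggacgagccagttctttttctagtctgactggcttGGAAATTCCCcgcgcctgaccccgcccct
Ier3, chr17:35821463-35821712, plus strand: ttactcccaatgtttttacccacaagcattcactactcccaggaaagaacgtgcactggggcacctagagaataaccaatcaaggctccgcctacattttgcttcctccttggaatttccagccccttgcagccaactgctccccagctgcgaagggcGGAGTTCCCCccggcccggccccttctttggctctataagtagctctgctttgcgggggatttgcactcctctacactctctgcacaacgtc
Fos, chr12:85473640-85473889, plus strand: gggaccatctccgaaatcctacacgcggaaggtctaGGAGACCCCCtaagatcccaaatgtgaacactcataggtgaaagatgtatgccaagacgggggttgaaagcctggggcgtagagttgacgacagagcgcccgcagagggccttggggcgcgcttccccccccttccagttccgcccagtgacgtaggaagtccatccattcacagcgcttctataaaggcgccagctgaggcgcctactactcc
Fosb, chr7:19310046-19310295, minus strand: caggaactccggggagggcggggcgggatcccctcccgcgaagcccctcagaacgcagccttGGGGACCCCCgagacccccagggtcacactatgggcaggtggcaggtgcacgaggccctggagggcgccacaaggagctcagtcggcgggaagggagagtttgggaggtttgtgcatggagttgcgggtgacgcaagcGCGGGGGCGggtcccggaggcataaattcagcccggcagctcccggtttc
Nr4a1, chr15:101266596-101266845, plus strand: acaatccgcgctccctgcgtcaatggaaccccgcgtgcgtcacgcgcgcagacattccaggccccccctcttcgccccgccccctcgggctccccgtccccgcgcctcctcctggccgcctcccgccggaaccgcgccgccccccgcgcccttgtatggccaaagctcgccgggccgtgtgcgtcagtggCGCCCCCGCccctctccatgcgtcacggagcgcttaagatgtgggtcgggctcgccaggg
Zfp36, chr7:28379229-28379478, minus strand: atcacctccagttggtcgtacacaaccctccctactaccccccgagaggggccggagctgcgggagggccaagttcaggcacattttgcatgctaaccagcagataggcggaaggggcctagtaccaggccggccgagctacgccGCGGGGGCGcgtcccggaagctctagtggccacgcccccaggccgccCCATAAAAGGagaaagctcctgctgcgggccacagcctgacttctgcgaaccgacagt
Klf4, chr4:55532476-55532725, minus strand: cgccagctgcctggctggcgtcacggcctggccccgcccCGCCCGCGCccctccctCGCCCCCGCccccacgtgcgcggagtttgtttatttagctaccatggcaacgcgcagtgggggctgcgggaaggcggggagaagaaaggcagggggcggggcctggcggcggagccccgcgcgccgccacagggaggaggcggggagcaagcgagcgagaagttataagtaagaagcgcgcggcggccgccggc

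Dusp1 holds a CRE 135 bases before its start site. The NF-kB match of Nfkbia ends 19 bases before the start, that of Ier3 82 bases before it and that of Fos 204 bases before it. The EGR match of Nr4a1 ends 51 bases before the start. Fosb and Zfp36 each hold 2 different motifs: Fosb an NF-kB and an EGR match, Zfp36 an EGR match and a CArG box. Klf4, a member that fell, holds 2 EGR matches. A match describes the letters only and says nothing of binding in this tissue.

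RefSeq promoter entries, 300 bases long with 50 bases after the start, were found for 30 of the 38 members. The entries not found were those of Cebpd, Dusp19, Dusp26, Egr1, Fosl1, Klf5, Klf10 and Socs2. Over the 34 windows of 26 members that rose (a gene can have several starts), 8 windows (23.5%) held the NF-kB motif, beside 6.45% of the windows of all listed genes and 4.51% of all 32851 windows. The EGR motif was in 7 windows (20.6%), beside 9.32% and 5.55%. CRE matches were in 2 windows (5.88%), Dusp1 and Maff, beside 2.25% and 1.79%. CArG boxes were also in 2 windows (5.88%), Klf8 and Zfp36, beside 1.499% and 1.63%. The AP-1 motif TGANTCA, bound by Fos and Jun dimers, was in 4 windows (11.8%), beside 7.82% and 7.81%. Those windows belong to Klf9, Zfp36l1 and Sphk1, and the 2 of Sphk1 share 1 site. The Ets core CCGGAAGT was in 0 of the 34 windows, beside 2.68% of listed and 3.89% of all windows. Each of the 4 members that fell and had an entry gave 1 window. Of these 4 windows, 1 (25%) held a CRE match, that of Mycbpap, and 1 (25%) an EGR match, that of Klf4. The other 4 motifs were in 0 of the 4. None of these motifs contains another, and the counts are descriptions of few windows with no test. In the 200 bases just before the start, the NF-kB count was 5 windows (14.7%), beside 4.47% and 3.18%, and the counts of the other motifs in members that rose were the same as in the longer window.

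Of the 38 members, 31 (81.6%) rose and 7 (18.4%) fell in the knockout. Among all 4121 listed genes 48.0% were higher and 52.0% lower. The median log2 ratio of knockout over wild type, computed on FPKM + 1, was 1.40 over the members and -0.76 over all listed genes. At least a 4-fold rise was seen in 11 members (28.9%), beside 12.9% of all listed genes, and at least a 4-fold fall in 4 (10.5%), beside 24.5%. The members that rose did so by a median of 3.37-fold, from 2.18-fold for Gadd45g to 12.9-fold for Dusp1. Over all listed genes the median fold was 2.91 for those higher and 3.71 for those lower. Those that fell were Klf5, Mycbpap, Mycl, Klf4, Dusp19, Socs1 and Klf10, by a median of 4.50-fold. In FPKM, which is scaled by transcript length, 10 members stood at or above 100 in the knockout and 3 in wild type. Of all 4121 listed genes, 339 did so in the knockout and 462 in wild type. Of the 38, 7 stayed under 5 FPKM in both genotypes, beside 926 of the 4121. Every member had to differ to be listed, so the counts describe directions only.

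**Figure D1:**
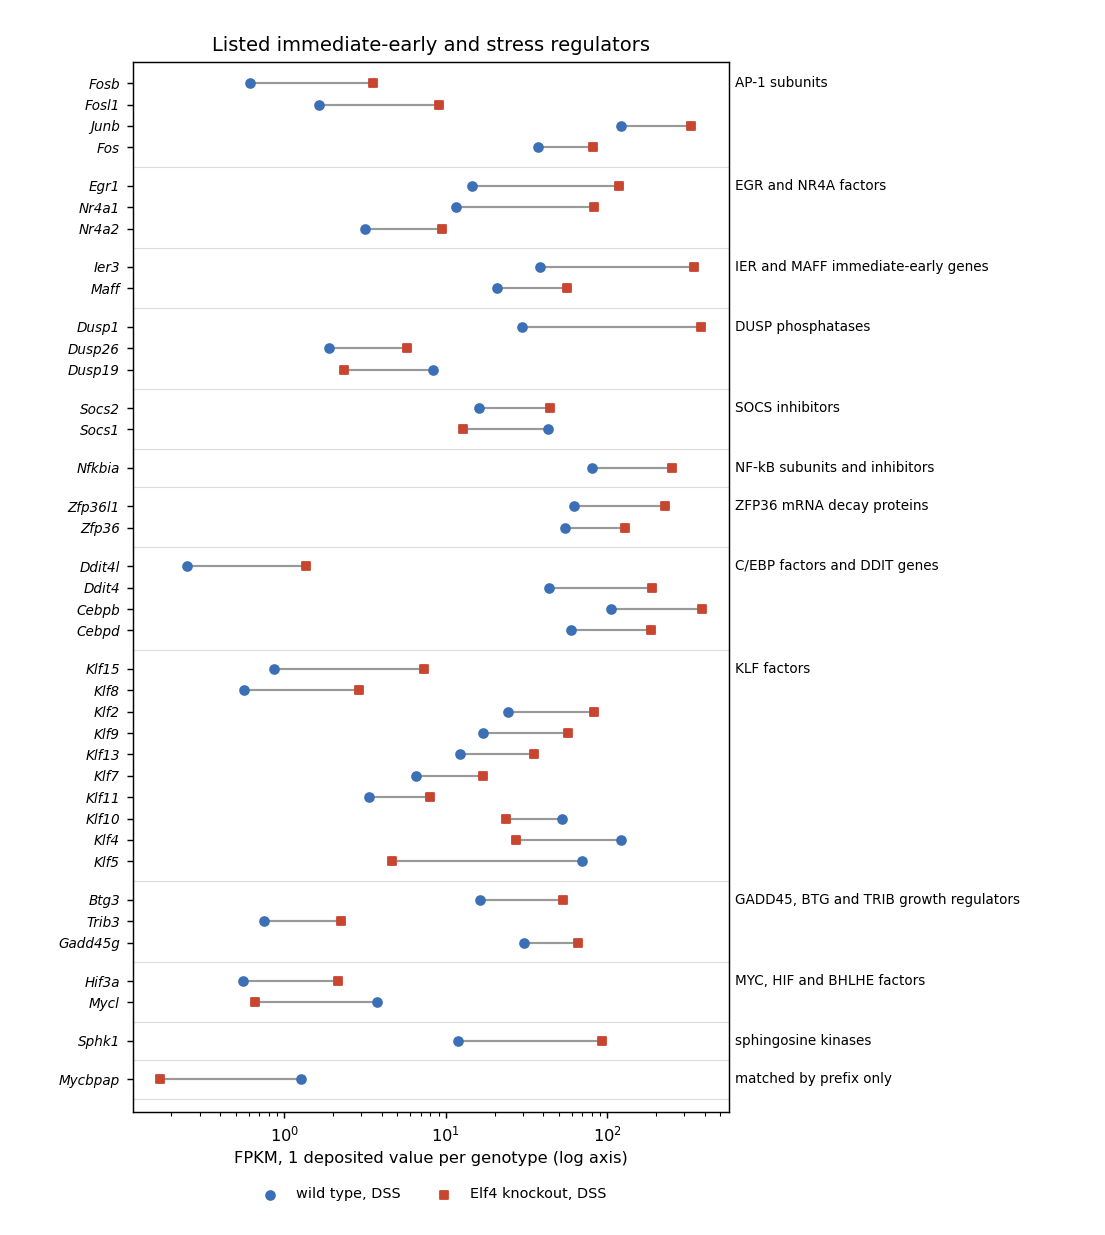
FPKM in wild type (circles) and Elf4 knockout (squares) for the 38 members, 1 deposited value per genotype on a log axis, grouped by family. The square lies to the right of the circle for 31 members and to the left for 7, among them Klf5 with the longest line.

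AP-1 is a dimer of a Fos and a Jun protein. Of 7 genes of its subunits, 4 were listed and 4 rose, with a median log2 ratio of 1.46. The 48.0% of all listed genes that were higher stands beside this count and those of the families below. Junb was the most abundant of them, at 122 FPKM (WT) and 329 FPKM (KO), 2.70-fold higher. Fos (chr12:85473890-85477273 on GRCm38, the build of all positions below) stood at 37.2 FPKM (WT) and 81.8 FPKM (KO), a 2.202-fold rise and the smallest in the family. The low members moved by larger folds: Fosb rose 5.78-fold from 0.609 to 3.52 FPKM, and Fosl1 5.58-fold from 1.63 to 9.11 FPKM. Jun, Jund and Fosl2 were not listed and are not analysed here.

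The zinc finger factor Egr1 and the orphan nuclear receptors of the Nr4a family are textbook immediate-early genes. Egr1 rose 8.19-fold, from 14.4 FPKM (WT) to 118 FPKM (KO). Nr4a1 (chr15:101266846-101274792) rose 7.16-fold, from 11.6 to 82.7 FPKM, to about the knockout level of Fos. Nr4a2 was lower in level and in fold, at 3.17 FPKM (WT) and 9.48 FPKM (KO), 2.99-fold higher. These 3 were the listed genes of 7 in the family list, and 3 rose.

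Ier3, a short immediate-early gene that modulates cell survival and NF-kB signaling, lies at chr17:35821684-35822923. It went from 38.2 FPKM (WT) to 343 FPKM (KO), an 8.96-fold rise. Among members that rose, its fold was second to that of Dusp1. Maff, a small Maf factor with a basic leucine zipper and no activation domain, rose 2.70-fold from 20.7 to 55.9 FPKM. Of the 6 genes in this list, Ier2, Ier5, Ier5l and Ier3ip1 were not listed.

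The brakes of the response did not all move one way. Dusp1 (chr17:26505590-26508519) encodes a nuclear phosphatase that switches off the p38 and JNK kinases. It stood at 29.6 FPKM (WT) and 380.5 FPKM (KO), and its 12.9-fold rise was the largest among the members. Dusp26, an atypical phosphatase gene of the family, rose 3.06-fold from 1.88 to 5.74 FPKM (authors' deposited table, q = 0.00498). Dusp19, another atypical member, fell 3.59-fold from 8.33 to 2.32 FPKM (authors' deposited table, q = 0.0478, the largest among the members). The ERK phosphatase genes Dusp4, Dusp5 and Dusp6 were among the 21 of 24 family genes not listed.

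Socs proteins bind cytokine receptors or their JAK kinases and shut down signaling. The listed pair moved in opposite directions. Socs1, the inhibitor best known from interferon signaling, fell 3.34-fold from 42.9 FPKM (WT) to 12.8 FPKM (KO). Socs2, known from growth hormone signaling, rose 2.75-fold from 16.1 to 44.2 FPKM. Socs3, the inhibitor of IL-6 type receptors, was not listed. Beside the fall of Socs1, 7 of 10 T cell marker genes were listed and 7 fell, from 100.2 to 35.0 FPKM when summed, with none at 0. B cell markers fell in 3 of 3 listed genes of 7, from 32.5 to 7.74 FPKM when summed. Epithelial markers fell in 17 of 17. The part of any of these cell types in the value of Socs1 was not tested.

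Nfkbia encodes IkB-alpha, which holds NF-kB in the cytoplasm and is itself switched on by NF-kB. It rose 3.13-fold, from 80.6 FPKM (WT) to 252.5 FPKM (KO). It was the only listed gene of 11 subunits and inhibitors of NF-kB. The subunit genes Rela, Relb, Rel, Nfkb1 and Nfkb2 were not listed, and neither was Bcl3.

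Both listed Zfp36 genes rose. Zfp36, which encodes tristetraprolin, went from 55.0 FPKM (WT) to 129 FPKM (KO), 2.34-fold higher. Zfp36l1 rose 3.68-fold, from 61.8 to 227 FPKM. Their proteins bind the AU-rich nonamer TTATTTATT, written here as DNA, in 3′ untranslated regions. In the principal transcript of GENCODE M21 the nonamer was present in 7 of the 31 members that rose (22.6%) and in 1 of the 7 that fell. It was present in 7.99% of the 3806 listed genes that have such a region. By direction, the share was 9.94% of the 1841 that were higher and 6.16% of the 1965 that were lower. The region had a median length of 815 bases in the members that rose and of 1012 bases in all listed genes. The sites are shown because Zfp36 and Zfp36l1 are themselves among the carriers, with the nonamer in capitals, 10 flanking bases on each side and GRCm38 positions. Where a gene has several nonamers, as Dusp1 and Maff do with 2 each, the site nearest the stop codon is given.
Fos, nonamer at chr12:85477113-85477121, plus strand: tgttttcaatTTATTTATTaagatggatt
Dusp1, nonamer at chr17:26506169-26506177, minus strand: gagctggtccTTATTTATTtaacaccccc
Maff, nonamer at chr15:79358788-79358796, plus strand: ttccacactcTTATTTATTgcacgaatct
Nfkbia, nonamer at chr12:55489618-55489626, minus strand: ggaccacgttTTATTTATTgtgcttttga
Zfp36, nonamer at chr7:28376961-28376969, minus strand: tatgacgactTTATTTATTgtattaagat
Zfp36l1, nonamer at chr12:80108177-80108185, minus strand: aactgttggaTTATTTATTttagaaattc
Cebpd, nonamer at chr16:15889238-15889246, plus strand: ggttggacatTTATTTATTgtaacagaac
Klf5, nonamer at chr14:99314669-99314677, plus strand: tgttttatcaTTATTTATTttgtggtaat

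Among these 8 carriers, Klf5 was the member that fell. No decay of any mRNA was measured.

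Members of the C/EBP family drive acute-phase and myeloid genes, and Ddit genes respond to stress. Cebpb stood at 386 FPKM in the knockout, close to the 380.5 FPKM of Dusp1, and at 105 FPKM in wild type (3.66-fold). Its table locus spanned 137105 bases, where the annotated gene has 1504, and it overlapped Tmem189. Cebpd rose 3.12-fold, from 59.8 to 186 FPKM. Ddit4, whose product REDD1 restrains the growth kinase mTORC1, rose 4.29-fold from 43.8 to 188 FPKM. Its paralog Ddit4l rose from 0.251 to 1.35 FPKM (5.40-fold, authors' deposited table, q = 0.0190). Of 9 genes in this list 4 were listed, and 4 rose. Ddit3, which encodes the stress factor CHOP, was not listed, and 0 of the 8 Atf genes searched for, Atf3 and Atf4 included, was listed. Neutrophil markers rose beside Cebpb and Cebpd in 10 of 12 listed genes of 13 and fell in 2. The sum over the 12 was 1204 FPKM (WT) and 4276 FPKM (KO). The 2 that fell were Ly6g, from 854 to 146 FPKM, and Ltf, from 14.4 to 2.05 FPKM. Monocyte and macrophage markers rose in 5 of 5 listed genes of 12, from 146 to 564 FPKM when summed. None of these markers was at 0, and their part in the C/EBP values was not tested.

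The Klf family was the largest, with 10 of 17 genes listed, and it split into 7 that rose and 3 that fell. The 3 that fell had been the most abundant in wild type. Klf5, which sustains the dividing cells of the crypt, fell 14.9-fold, from 69.1 FPKM (WT) to 4.65 FPKM (KO), with 6.72% of the wild-type value left. Klf4, which acts in goblet cell differentiation, fell 4.50-fold from 122 to 27.2 FPKM. Klf10, a gene induced by TGF-beta, fell 2.196-fold from 52.0 to 23.7 FPKM. The 17 epithelial markers fell by a median of 11.7-fold in the same tissue, a larger fall than that of Klf4 and Klf10 and a smaller one than that of Klf5. Their part in these falls was not tested.

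The Klf genes that rose were led in level by Klf2, a factor of endothelial cells under blood flow, which went from 24.2 FPKM (WT) to 82.3 FPKM (KO), 3.40-fold higher. Endothelial markers rose in 9 of 9 listed genes of 10, from 136 to 446 FPKM when summed and with none at 0, and their part in the value of Klf2 was not tested. Klf9 and Klf15 are known to be induced by glucocorticoids. Klf9 rose 3.37-fold from 17.0 to 57.4 FPKM. Klf15 rose 8.47-fold from 0.866 to 7.34 FPKM, the largest fold among the Klf genes that rose. Klf13 rose 2.87-fold from 12.2 to 35.0 FPKM (authors' deposited table, q = 0.00156), and Klf7 2.59-fold from 6.53 to 16.9 FPKM. Klf8 and Klf11 stayed under 10 FPKM in both genotypes. Klf8 went from 0.565 to 2.91 FPKM (authors' deposited table, q = 0.00238) and Klf11 from 3.32 to 7.97 FPKM (q = 0.00211 there).

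Growth regulators of the Gadd45, Btg and Trib families rose in 3 of 3 listed genes of 11. Gadd45g, which activates stress kinases, rose 2.18-fold from 30.3 to 66.1 FPKM (authors' deposited table, q = 0.00128). Btg3, an antiproliferative gene, rose 3.27-fold from 16.2 to 52.9 FPKM. The pseudokinase gene Trib3, a target of the Atf4 stress pathway, rose from 0.749 to 2.25 FPKM (3.01-fold, authors' deposited table, q = 0.0200). In the list of Myc, Hif and Bhlhe factors, 2 of 11 genes were listed, both under 5 FPKM. Mycl, a relative of Myc, fell 5.69-fold from 3.76 to 0.661 FPKM (authors' deposited table, q = 0.000694). Hif3a, a partner of the hypoxia pathway, rose 3.87-fold from 0.554 to 2.15 FPKM. Myc and Hif1a were not listed. Mycbpap, which matched by the start of its symbol and is no Myc factor, went from 1.27 to 0.169 FPKM (7.51-fold lower, authors' deposited table, q = 0.0410).

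Sphk1 makes sphingosine 1-phosphate, a lipid signal for leukocyte traffic and vessels, and it is induced by growth factors and cytokines. It rose 7.76-fold, from 11.9 FPKM (WT) to 92.1 FPKM (KO). Around it, 3 of 12 genes of the same lipid's metabolism and receptors were listed. The receptor gene S1pr1 rose 3.39-fold from 16.1 to 54.5 FPKM, and the lipid phosphatase gene Plpp3 2.09-fold from 35.0 to 73.0 FPKM. Sgpp2, a phosphatase gene that undoes the reaction of Sphk1, fell 9.97-fold from 62.6 to 6.28 FPKM. The 17 epithelial markers fell by a median of 11.7-fold in the same tissue, and their part in the value of Sgpp2 was not tested.

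Other genes of the same pathways were read from 12 lists of 206 genes, of which 83 were listed, 66 higher and 17 lower, where 48.0% of all listed genes were higher. Of 25 immediate-early genes outside the families, 20 were listed and 20 rose, with a median log2 ratio of 1.61. The 12 lists were chosen with earlier results of these data known, so this count is no separate support for the members. Beside them and the members that rose, fibroblast markers were higher in 5 of 5 listed genes of 8, from 1062 to 4150 FPKM when summed. Enteric neuron and glia markers were higher in 6 of 6 listed genes of 9, from 120 to 568 FPKM when summed, and 0 of 8 smooth muscle markers were listed. No listed marker of either kind was at 0, and their part in these values was not tested. Ptgs2, the inducible cyclooxygenase gene, rose 19.0-fold from 12.2 to 231 FPKM. Thbs1 rose 10.6-fold from 45.2 to 480.0 FPKM, and the matricellular gene Cyr61 6.97-fold from 6.02 to 41.9 FPKM.

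**Figure D2:**
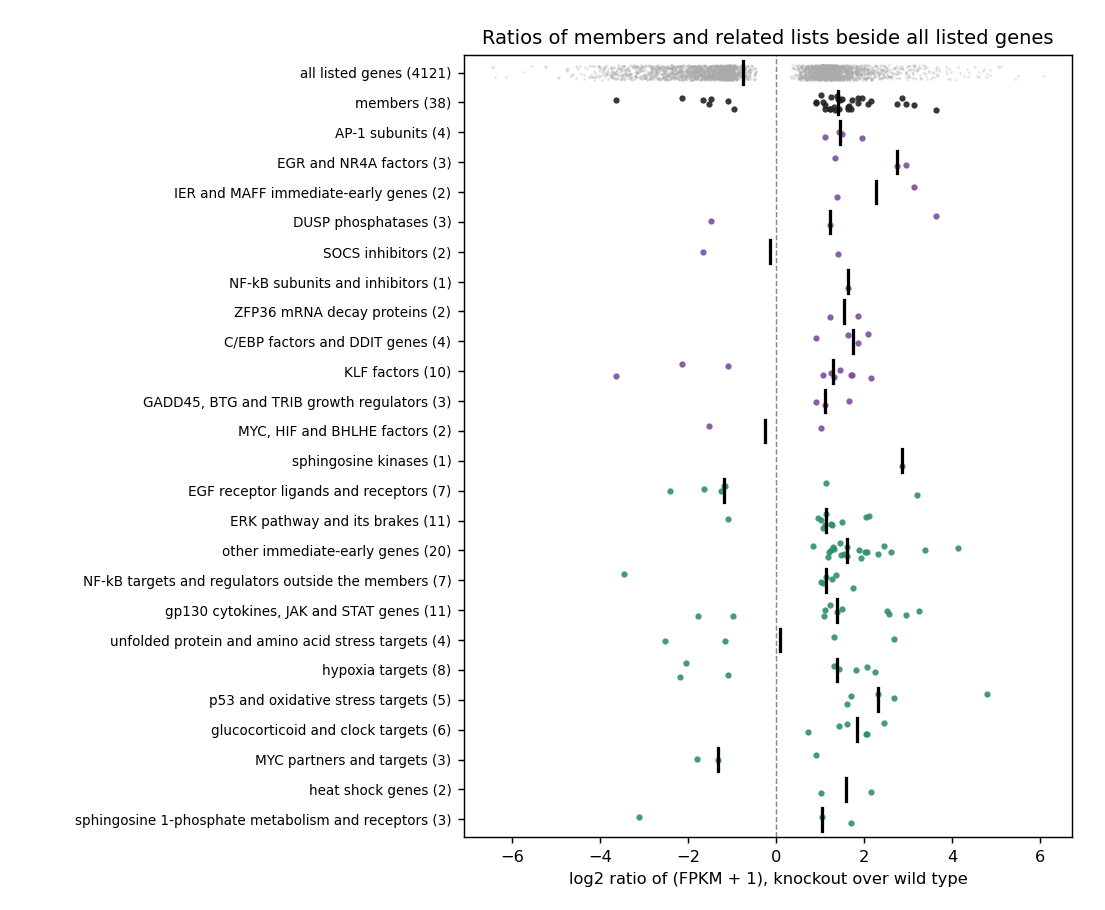
Log2 ratio of FPKM + 1, knockout over wild type, for all listed genes, the 38 members, their families and the 12 related lists. Each point is a gene, the black bar is the median and the number of listed genes stands in parentheses. The medians are -0.76 for all listed genes, 1.40 for the members and 1.61 for the 20 other immediate-early genes, which all lie to the right of 0. The members, families and lists were chosen with earlier results of these data known.

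Upstream of Fos and Egr1 is the ERK pathway, started among others by EGF receptor ligands. Of 11 ligand and receptor genes, 7 were listed, 2 higher and 5 lower (median log2 ratio -1.18). The shares over all listed genes were 48.0% higher and 52.0% lower, also for the ERK pathway count below. Ereg, encoding the ligand epiregulin, rose 9.35-fold from 52.5 to 491 FPKM. The receptor genes Erbb3 and Erbb2 fell 6.12-fold and 3.57-fold, from 33.4 to 5.46 FPKM and from 16.2 to 4.55 FPKM. The part of the epithelial markers, which fell by a median of 11.7-fold, in the values of Erbb3 and Erbb2 was not tested. The ligand genes Hbegf, Areg and Tgfa, chosen after their values were seen, fell 2.48-fold, 2.29-fold and 3.03-fold. The q of Areg was 0.000998 in the authors' deposited table. Epgn, the other ligand gene that rose and likewise chosen afterwards, went from 1.54 to 4.52 FPKM (authors' deposited table, q = 0.0128). The listed ligands were thus split into 2 that rose and 3 that fell. Of 20 genes of the ERK pathway and its brakes, 11 were listed, with 10 rises and a median log2 ratio of 1.13. The brakes Spry1, Spred3 and Spry4 rose 4.93-fold, 5.44-fold and 3.27-fold, to 28.4, 12.8 and 13.8 FPKM. The exception, picked with its values known, was the ERK1 gene Mapk3, at 169 FPKM (WT) and 79.1 FPKM (KO).

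Beside Socs1 and Socs2, 11 of 24 genes of IL-6 type cytokines, their receptors, JAK and STAT genes were listed, 9 higher and 2 lower (median log2 ratio 1.38). The cytokine genes Osm, Il6 and Lif rose 12.1-fold, 10.2-fold and 7.31-fold, to 18.7, 118 and 26.2 FPKM. Among the lower ones was Tyk2, a JAK family kinase gene picked with its values known (11.9 to 5.50 FPKM; authors' deposited table, q = 0.0452). Of 20 NF-kB targets and regulators outside the members, 7 were listed, 6 higher and 1 lower (median log2 ratio 1.12). Beside both lists, 48.0% of all listed genes were higher and 52.0% lower. Il1b rose 3.37-fold from 77.6 to 262 FPKM and Tnfaip2 2.60-fold from 35.0 to 90.9 FPKM. Tnip3, an inhibitor of NF-kB signaling, fell 12.4-fold from 81.1 to 6.53 FPKM, opposite in direction to the inhibitor gene Nfkbia. The 17 epithelial markers, of which 17 fell, did so by a median of 11.7-fold. Their part in the value of Tnip3 was not tested.

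The lists of stress pathways are small, and a gene absent from them may have missed either limit of the authors' call. The number listed is therefore not read as a difference between pathways. Among all listed genes 48.0% were higher. Of 15 glucocorticoid and clock genes, 6 were listed, with 6 rises and a median log2 ratio of 1.83. Sgk1, Cry2 and Per1 rose 5.63-fold, 5.06-fold and 4.56-fold, to 165, 17.0 and 36.8 FPKM. The glucocorticoid-induced genes Fkbp5 and Tsc22d3, chosen after their values were seen, rose 3.17-fold and 2.75-fold. Per2, the remaining listed gene and likewise chosen afterwards, had the smallest rise. It went up 2.04-fold from 1.73 to 3.54 FPKM (authors' deposited table, q = 0.0128). Arntl, Ciart, Clock, Cry1, Dbp, Nr1d1, Nr1d2, Per3 and Tef of the same list were not listed. A part of glucocorticoids in any of these values was not tested. Per1 and Sgk1 were also in the immediate-early list. Of 14 p53 and oxidative stress targets, 5 were listed, with 5 rises and a median log2 ratio of 2.32. Hmox1, which breaks down heme, rose 28.9-fold from 20.6 to 596 FPKM, and Slc7a11, a cystine importer gene, 7.76-fold from 3.81 to 29.6 FPKM. Plk2, Sesn1 and Gclc rose 5.43-fold, 3.43-fold and 3.18-fold.

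Beside Trib3, 4 of 21 unfolded protein and amino acid stress targets were listed, 2 higher and 2 lower. Slc7a11 and Slc3a2, whose products form the cystine importer, rose, Slc3a2 by 2.54-fold from 45.0 to 114 FPKM. Ern2, the stress sensor gene of goblet cells, fell 12.1-fold from 9.02 to 0.747 FPKM, and Sdf2l1 2.28-fold from 47.6 to 20.8 FPKM (authors' deposited table, q = 0.00156). The part of the epithelial markers, which fell by a median of 11.7-fold, in the value of Ern2 was not tested. The chaperone gene Hspa5, Xbp1, Ern1 and Asns were not listed. Beside Hif3a and Ddit4, 8 of 19 hypoxia targets were listed, 5 higher and 3 lower (median log2 ratio 1.37). Hilpda and Adm rose 5.14-fold and 4.59-fold, to 51.9 and 36.4 FPKM, while Car9, an epithelial carbonic anhydrase gene, fell 5.16-fold to 5.80 FPKM. Of 11 heat shock genes, 2 were listed: Hspb1 rose 4.46-fold from 173 to 773 FPKM and Bag3 2.10-fold from 16.7 to 34.9 FPKM (q = 0.000694 for Bag3 in the authors' deposited table). Beside Mycl, 3 of 18 Myc partners and targets were listed. Mxd1 fell from 144 to 40.8 FPKM and Ccnd2 from 41.4 to 15.9 FPKM, while Mnt rose from 5.05 to 10.4 FPKM (authors' deposited table, q = 0.00128).

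**Figure D3:**
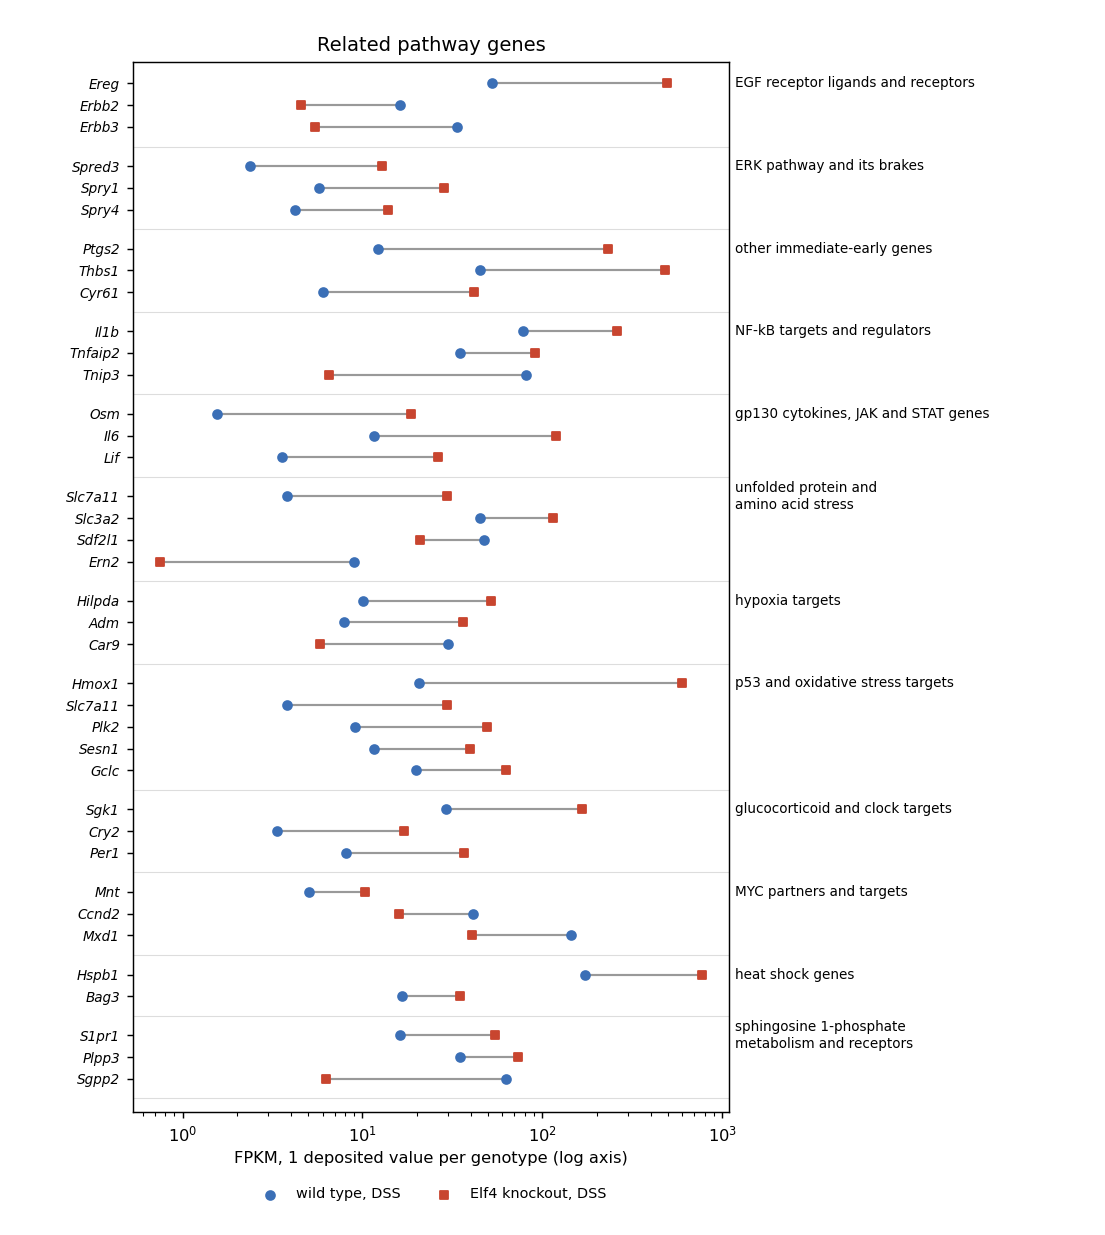
FPKM in wild type (circles) and Elf4 knockout (squares) for the genes named by rule in the 12 related lists, 1 deposited value per genotype on a log axis. The longest line to the right is that of Hmox1 (20.6 to 596 FPKM), and those to the left include Ern2, Tnip3 and Sgpp2. Slc7a11 is drawn under both of its lists.

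Most members were short genes with few exons. The choice by symbol took related genes together, such as the 10 Klf genes, and related genes can share their exon layout. The members are therefore not independent of each other in this feature. In the principal transcript, 29 of 38 members (76.3%) had at most 4 exons, beside 24.8% of 3937 listed coding genes. The median was 4 exons in members that rose and 4 in those that fell, beside 8 in all listed genes. Cebpb, Cebpd and Junb had 1 exon, while Hif3a had 15 and Mycbpap 19. The annotated gene spanned a median of 7.47 kb in the members and 24.8 kb in all listed coding genes, and the coding length had medians of 1014 and 1323 bases. At most 4 exons were found in 24 of the 31 members that rose and 5 of the 7 that fell. Over all listed coding genes, 25.8% of those higher and 23.8% of those lower had at most 4 exons.

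**Figure D4:**
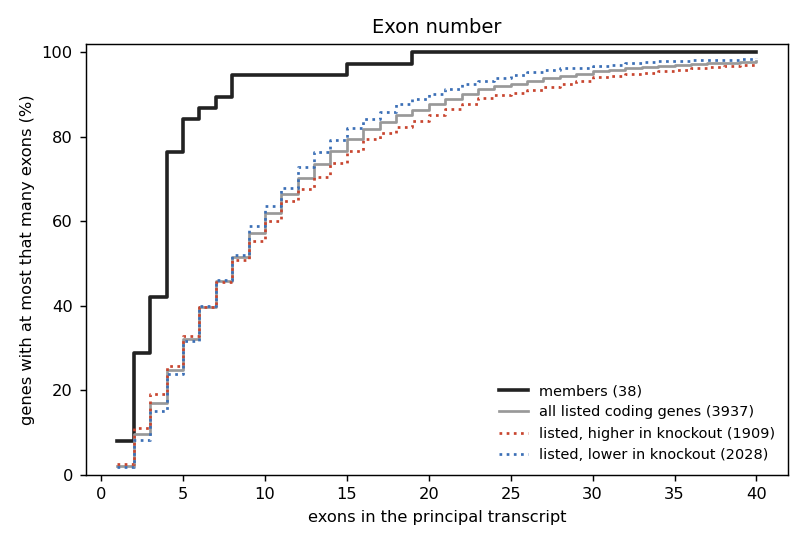
Cumulative share of genes (y axis, %) with at most a given number of exons in the principal transcript (x axis) for the 38 members, all 3937 listed coding genes, and those higher or lower in the knockout. At 4 exons the curve of the members stands at 76.3% and that of all listed genes at 24.8%.

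Positions bear on how sure some values are. The locus in the table was over 2 times as long as the annotated gene for Cebpb, Cebpd, Dusp19, Junb and Zfp36. Reads of neighboring genes may be part of those values, and this was not tested. Another annotated gene overlapped the annotated span of 14 members, these 5 among them. Overlap with the table locus itself was not counted for annotated genes, and for Dusp1 the span has 56539 bases and the table locus 2930. The sources used here do not say whether strand was kept. None of the 38 table loci overlapped another listed gene. Without the 5 members of wide locus, 27 members rose and 6 fell.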

How the data were processed

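Trizol RNA of flash-frozen colon was made into libraries with a Vazyme mRNA kit, per the labels' protocols. The submitters' processing notes name Bowtie 0.12.2, Cufflinks 2.2.1 and the build mm8, with no role for any. Per the file headers, the authors deposited 1 FPKM value for each gene in each genotype, and the sources used here do not say how 2 samples were combined. The deposited p-value and q-value of each gene are the authors' own, and their filter was read from the values (relative tolerance 1e-05 on the fold). With 1 value per genotype no test, normalization or interval could be computed.

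Of the listed genes, 4116 were found in GENCODE M21 (GRCm38). Gene ends matched exactly for 76.8% of them, and starts (plus 1) for 77.5%, so the table's coordinates are on GRCm38 and not on mm8. Log2 ratios used a pseudocount of 1, which understates changes of low genes, and folds used FPKM alone.

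The members, families and lists were chosen with earlier results of these data known. Every listed member could be named. In each related list the 3 largest log2 ratios with at least 1 FPKM were named, or all where 5 or fewer were listed, besides Elf4, and 1 gene of these lists is not reported here. Motifs were searched on both strands, and the counts, medians and motif search were tested on simulated data. The principal transcript was the best APPRIS one of each gene, then the longest. Alternatives were other q, fold and FPKM limits, pseudocounts of 0.1 and 0, centring, narrower membership and a 200-base promoter window. Software was Python 3.11.15 with pandas 2.3.3, numpy 2.4.6 and matplotlib 3.10.9.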

Additional observations from a re-analysis of the deposited data

How the results depend on the processing

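No paired analysis was possible because each genotype has 1 pooled value. Leaving out each sample and another normalization could not be run either, so the weight of any 1 sample in these values is unknown. Keeping only differences of at least 4-fold left 11 members higher and 4 lower, by construction fewer than 31 and 7. Centring on the table median moved the median log2 ratio of the members to 2.15. By construction it raised the log2 ratio of all 76 named genes by the same amount and turned none, with Klf10 going from -1.10 to -0.35 and Mycbpap from -0.96 to -0.20. Under the other limits on q and FPKM and the narrower memberships, 26 to 31 members were higher and 5 to 7 lower. Leaving out members of wide locus was chosen after seeing the data. Pseudocounts of 0.1 and 0 gave member medians of 1.60 and 1.63. These pseudocounts moved the ratio of 8 and 10 of 76 named genes by over 1.5 times and turned none.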
